A study of Mus musculus with 27 samples.

Results

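Liver RNA of HGFAC-KO mice and littermate controls was compared after feeding with a diet rich in fat and sucrose (HF/HS). The comparison took every library labelled HF/HS, which are 14 of the 27 liver libraries of the series, from 7 littermate controls and 7 HGFAC-KO mice. All 14 were male mice on the C57BL/6J background, 8 weeks old when the diet began, and were fed HF/HS for 4 weeks. The knockout is one of the whole body and not of hepatocytes alone. CRISPR/Cas9 was used to remove exon 2 of *Hgfac* together with a part of exon 1. The controls carried the undeleted gene, and no other allele or agent is named for either group. Libraries of stranded mRNA were sequenced as paired-end reads, and the values used are counts of reads per gene. A further 6 HGFAC-KO mice and 7 controls on chow served only for values set side by side. Each library has a number of its own within its group, and nothing in them states litters or days, so the p-values measure the spread between these mice.

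Hepatocyte growth factor activator (HGFAC) is a serine protease that the liver secretes as an inactive zymogen. Once active, it cleaves the precursor of hepatocyte growth factor (HGF), the ligand of the receptor tyrosine kinase MET, and it can also activate macrophage-stimulating protein (MSP, gene *Mst1*), the ligand of the receptor RON (gene *Mst1r*). MET signals through adaptors and the MAPK pathway, and in liver it is known for hepatocyte growth and survival and for effects on lipid and glucose metabolism. Because these steps act on proteins, RNA counts show levels of the transcripts and not the activity of the protease or the receptor.

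Total counts ran from 36056177 to 57298657 per library on HF/HS, and rows without a gene name, which were left out, held between 4.13% and 9.17% of them. One control, replicate 7, stood apart on the second principal component, where it lay at -31.1 while the other 13 mice ran between -10.1 and 17.7. Its acute-phase genes were high, as described below, and the gene groups that depended most on it are also given without it. The tissue label was checked against hepatocyte genes. The summed level of 22 hepatocyte genes was 69103 to 88007 CPM in controls (CPM are counts scaled to a common library size) and 82443 to 106360 CPM in the knockouts, and none of them was at 0. Most of this sum was *Alb* (albumin), described below. The median log2 fold change of HGFAC-KO over control for the 22 genes was 0.05.

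The targeted gene was lower in every HGFAC-KO mouse. *Hgfac* is found at positions 35041509 to 35048461 of chromosome 5 (GRCm38, plus strand), and its transcript Hgfac-201 has 14 exons and 2135 bases. Its level ran between 246 and 295 CPM across controls (median 272) and between 81.5 and 100.4 CPM across knockouts (median 88.8). The groups did not overlap. The log2 fold change of HGFAC-KO over control is given ± its standard error, also where it stands alone after a gene below. For *Hgfac* it was -1.56 ± 0.06 (adjusted p = 1.66e-10 by edgeR, quasi-likelihood test, Benjamini-Hochberg).

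Exons 1 and 2 hold 377 of the 2135 bases, so 82.3% of the transcript lies outside both and could still be counted in the knockout. The table gives 1 value per gene, so the exons behind the remaining counts cannot be told apart. The study also lists a primer pair for qPCR of *Hgfac*, and its position is shown because it differs from what the read counts cover. Both primers matched the transcript, and the 160 bases between their outer ends start in exon 2 at position 35042382 and end in exon 3 at position 35042642 of chromosome 5, with 83 bases in exon 2 and 77 in exon 3. In the last sequence the capitals mark the bases of exon 2, which the deletion removes:
forward primer: aagtgctccagcagcagagac
reverse primer: ctcagaggtacaggagtgcagc
amplified stretch: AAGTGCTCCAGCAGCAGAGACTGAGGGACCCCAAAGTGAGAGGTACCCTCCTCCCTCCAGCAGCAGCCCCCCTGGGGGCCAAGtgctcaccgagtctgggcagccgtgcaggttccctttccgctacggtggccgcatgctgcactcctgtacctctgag
The forward primer therefore lies in the deleted exon, whereas the counted reads could come from any exon that remained.

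Next to *Hgfac*, 1 gene passed the test in this comparison, and it did not pass (adjusted p = 0.126 by edgeR) when the fit took all 27 mice. *Chka*, which encodes choline kinase alpha, the enzyme that phosphorylates choline in the first step of phosphatidylcholine synthesis, rose from 56.4 ± 3.29 to 80.8 ± 4.83 CPM (mean ± SD of 7 mice each). Single mice ran between 51.5 and 60.3 CPM across controls (median 55.6) and between 75.1 and 89.5 CPM across knockouts (median 80.4), with every HGFAC-KO mouse above every control. The log2 fold change was 0.52 ± 0.05 (adjusted p = 1.19e-04 by edgeR). On chow, controls averaged 73.1 CPM and HGFAC-KO mice 82.0 CPM, a log2 difference of 0.16 that did not pass (adjusted p = 0.845).

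**Figure D1:**
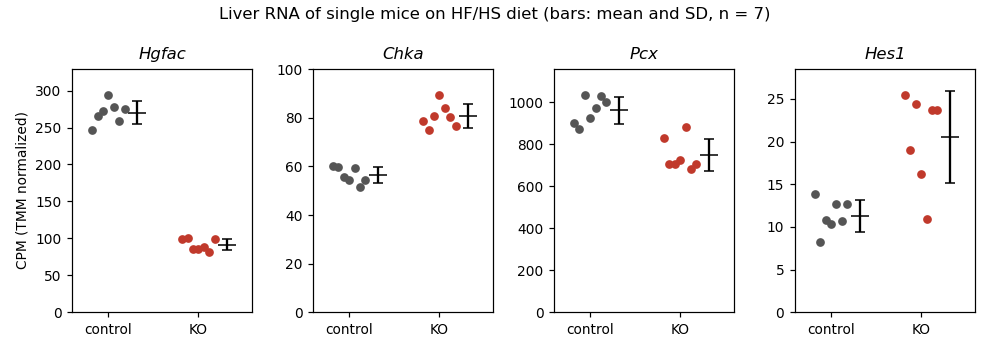
Levels of *Hgfac*, *Chka*, *Pcx* and *Hes1* in CPM (vertical axes, each from 0) for the 7 controls (grey) and the 7 HGFAC-KO mice (red) on HF/HS, with the mean and SD beside the points. The groups are apart for *Hgfac* and *Chka*, while the highest HGFAC-KO mouse for *Pcx* (883 CPM) lies inside the control range and the lowest for *Hes1* (10.9 CPM) does too.

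These were the only genes of 13544 tested that passed an adjusted p of 0.05 (0.0148% of genes tested). At an unadjusted p under 0.05, 4.94% of genes were higher in HGFAC-KO mice and 4.7% were lower, 1306 genes together. Without control replicate 7 these were 920 and 781 genes, and without HGFAC-KO replicate 5 they were 984 and 985. Of all genes, 50.5% were lower in HGFAC-KO mice, and the median log2 fold change was -0.0015. These shares are the background for the HF/HS values of every gene group below. Differences were small, since 2.63% of genes differed by more than 0.5 on the log2 scale. DESeq2 on the same counts called 55 genes, 20 higher and 35 lower. Of the members of gene groups described below these included, among others, *Phyh*, *Cyp4a10*, *Aldh3a2*, *Abat*, *Slc25a13*, *Psmc3*, *Slco1b2* and *Sox9*. The groups did not overlap for 2 genes that were higher in HGFAC-KO mice (0.0148% of genes tested) and for 9 that were lower (0.0665%). *Grhl1*, a grainyhead-like transcription factor, joined *Chka* among the first, and *Gnpda1*, *Vwa8*, *Adtrp*, *Mgst1*, *Cpt2*, *Anxa7*, *Pcsk6* and *Slc15a5* joined *Hgfac* among the second. *Grhl1*, *Adtrp*, *Anxa7*, *Pcsk6* and *Slc15a5* were named after their values had been seen.

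**Figure D2:**
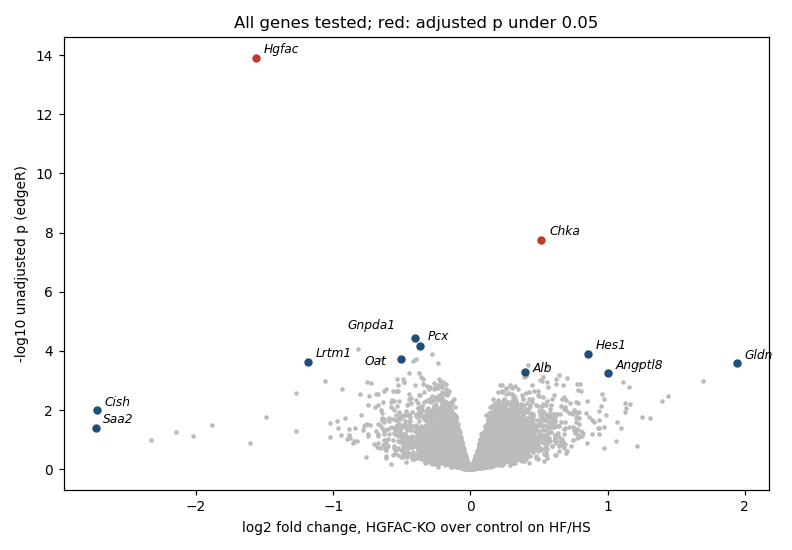
Log2 fold change of HGFAC-KO over control on HF/HS (horizontal axis) against -log10 of the unadjusted p (vertical axis) for the 13544 genes tested. *Hgfac* and *Chka* (red) stand above all other genes, and the labelled genes in blue have adjusted p-values of 0.172 or more.

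Among the genes that were lower in HGFAC-KO mice, those with the smallest p after *Hgfac* included enzymes of sugar and amino acid use. *Gnpda1*, which returns glucosamine 6-phosphate to glycolysis, ran between 9.98 and 12.4 CPM across controls (median 10.2) and between 7.37 and 9.03 CPM across knockouts (median 7.94), with no overlap. Its log2 fold change was -0.40 ± 0.07 (unadjusted p = 3.81e-05, adjusted p = 0.172). *Pcx* encodes pyruvate carboxylase, which makes oxaloacetate from pyruvate in mitochondria, and ran between 872 and 1037 CPM across controls (median 973) and between 680.2 and 883 CPM across knockouts (median 707). One HGFAC-KO mouse, replicate 5, reached into the control range, and the log2 fold change was -0.36 ± 0.07 (unadjusted p = 6.77e-05, adjusted p = 0.229). Without this mouse it was -0.41 and passed (adjusted p = 0.0188 by edgeR), and with all mice it passed by DESeq2 (adjusted p = 6.63e-04). *Vwa8*, a mitochondrial ATPase, had medians of 379 CPM in controls and 309.9 CPM in knockouts and a log2 fold change of -0.28 ± 0.06. *Oat*, ornithine aminotransferase, ran between 732 and 1018 CPM across controls (median 819) and between 449 and 758 CPM across knockouts (median 603), and its log2 fold change of -0.51 ± 0.11 passed by edgeR without HGFAC-KO replicate 5 (adjusted p = 0.0381). The others were *Tafa5* (-0.82 ± 0.16), *Ctcfl* (-0.66 ± 0.14), *Poc1b* (-0.39 ± 0.08), *Chrna2* (-0.42 ± 0.09) and *Lrtm1* (-1.19 ± 0.25), of which *Tafa5*, *Ctcfl* and *Lrtm1* had control medians under 5 CPM. *Poc1b*, a centriole protein, passed by edgeR without control replicate 7 (adjusted p = 0.0389). With all mice, DESeq2 called each of the genes named in this paragraph.

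Among the genes that were higher, *Hes1* followed *Chka*. It encodes a transcriptional repressor best known as a target of Notch signaling, and its level ran between 8.19 and 13.8 CPM across controls (median 10.8) and between 10.9 and 25.5 CPM across knockouts (median 23.7). All HGFAC-KO mice but replicate 5 lay above all controls. The log2 fold change was 0.86 ± 0.17 (unadjusted p = 1.23e-04, adjusted p = 0.25), and it passed by edgeR without HGFAC-KO replicate 5 (0.96, adjusted p = 0.00602) and by DESeq2 with all mice (adjusted p = 9.80e-04). *Angptl8* encodes a secreted protein that acts on lipoprotein lipase and is known to respond to feeding. It ran between 53.0 and 129.9 CPM across controls (median 80.5) and between 87.9 and 213 CPM across knockouts (median 154), with a log2 fold change of 1.00 ± 0.23 (unadjusted p = 5.64e-04, adjusted p = 0.331). *Alb* (albumin) had medians of 55874 CPM in controls and 79468 CPM in knockouts, and all 7 HGFAC-KO mice lay above the control median (0.40 ± 0.09). The 10 genes with the most counts took 16.3% to 18.2% of named counts in controls and 17.9% to 19.9% in HGFAC-KO mice. The others were *Gldn* (1.94 ± 0.41), *Rnf225* (1.22 ± 0.26), *Pinx1* (0.42 ± 0.09), *Itih5* (0.55 ± 0.12), *Gria3* (1.01 ± 0.23) and *Cdkn2c* (0.65 ± 0.15). *Gldn*, *Rnf225*, *Gria3* and *Cdkn2c* had control medians under 2 CPM. DESeq2 called each gene named here with all mice.

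Transcripts of the HGF and MSP pathway other than *Hgfac* did not pass the adjusted test by edgeR or DESeq2. Of 23 members tested, 14 were lower in HGFAC-KO mice, the median log2 fold change was -0.03, and at an unadjusted p under 0.05 there were 1 higher and 2 lower, *Hgfac* included. The ligand *Hgf* ran between 5.68 and 11.4 CPM across controls (median 8.21) and between 4.97 and 10.8 CPM across knockouts (median 7.22), and its receptor *Met* ran between 72.9 and 112 CPM across controls (median 83.2) and between 71.8 and 101 CPM across knockouts (median 76.4). The groups overlapped for both, with log2 fold changes of -0.10 ± 0.19 and -0.13 ± 0.09. The ligand *Mst1* had medians of 210.3 CPM in controls and 224 CPM in knockouts (0.06 ± 0.07). Its receptor *Mst1r* was low in all mice, between 0.237 and 0.519 CPM across controls (median 0.286) and between 0.228 and 1.11 CPM across knockouts (median 0.679), with 4 HGFAC-KO mice above and 2 below all controls (0.94 ± 0.33, unadjusted p = 0.011). Hepsin (*Hpn*), another protease that can activate the ligands, and the inhibitor *Spint2* had log2 fold changes of -0.08 ± 0.06 and -0.07 ± 0.05. The adaptor *Grb2*, which links the receptor to MAPK signaling, was -0.11 ± 0.05 (unadjusted p = 0.0368).

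Immediate early genes, which MAPK signaling and many other stimuli induce within minutes, gave a median log2 fold change of 0.11 over 26 genes, of which 16 were higher in HGFAC-KO mice. At an unadjusted p under 0.05 there were 3 higher and 0 lower. *Egr1*, a zinc finger transcription factor, ran between 3.98 and 21.3 CPM across controls (median 8.44) and between 5.97 and 58.1 CPM across knockouts (median 20.5), with 3 HGFAC-KO mice above all controls and the others within their range. Its log2 fold change was 1.31 ± 0.49, unadjusted p = 0.0193, and those of *Ier2* and *Ier5* were 0.28 ± 0.10 and 0.51 ± 0.22. Without control replicate 7, the median of the group was 0.21 and 7 genes were higher at that level, and without HGFAC-KO replicate 2 the median was 0.06.

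Around *Chka*, most genes of choline and phosphatidylcholine metabolism were lower rather than higher. Of 34 members, 25 were lower (median -0.05), and at an unadjusted p under 0.05 there were 2 higher and 8 lower (13 lower without HGFAC-KO replicate 5). *Chpt1*, which joins CDP-choline to diacylglycerol in the last step of the pathway that *Chka* begins, ran between 115 and 166 CPM across controls (median 146) and between 107 and 129.8 CPM across knockouts (median 119) and lay below the control median in 7 of 7 HGFAC-KO mice (-0.27 ± 0.07, unadjusted p = 0.00201). *Pcyt1a*, the enzyme between them, was -0.05 ± 0.05. The phosphatidate phosphatases *Lpin1* and *Lpin2*, which supply diacylglycerol, were -0.65 ± 0.22 and -0.51 ± 0.19. *Chdh*, which oxidizes choline toward betaine, was -0.19 ± 0.07, and *Gde1*, which cleaves glycerophosphodiesters, was -0.17 ± 0.06. *Pnpla6*, a phospholipase of phosphatidylcholine, was the other member that was higher at an unadjusted p under 0.05 (0.15 ± 0.05). None of these passed the adjusted test by edgeR or DESeq2.

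Genes of mitochondrial fatty acid oxidation, which shortens acyl chains for ketone bodies and the TCA cycle, were lower in HGFAC-KO mice by small amounts. Of 35 members, 30 were lower, 15 of them at an unadjusted p under 0.05, against 4.7% of all genes, and no member passed the adjusted test by edgeR. The median log2 fold change was -0.14, and leaving out each mouse kept it between -0.16 and -0.11. *Cpt2*, which rebuilds acyl-CoA inside the mitochondrion, ran between 219 and 259 CPM across controls (median 226) and between 195 and 216 CPM across knockouts (median 204) without overlap, and its log2 fold change was -0.17 ± 0.05 (unadjusted p = 0.00245, adjusted p = 0.353). By DESeq2 *Cpt2* passed (adjusted p = 0.0486). *Eci1*, an enoyl-CoA isomerase for unsaturated chains, ran between 160.2 and 198 CPM across controls (median 178) and between 118 and 185 CPM across knockouts (median 137), where replicate 5 was the highest HGFAC-KO mouse. It was -0.30 ± 0.08 with all mice and passed without that mouse (-0.37, adjusted p = 0.0342). *Decr1*, also for unsaturated chains, was -0.21 ± 0.06. *Acat1*, a mitochondrial thiolase, and *Cpt1a*, which starts the import of acyl chains, were chosen after their values were seen and were -0.25 ± 0.08 and -0.18 ± 0.08.

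The peroxisome and the omega oxidation pathway, which act on very long, branched and dicarboxylic fatty acids, were also lower in most members. Among 59 peroxisomal genes, 42 were lower, 18 of them at an unadjusted p under 0.05 and none higher at that level, with a median of -0.11. *Phyh*, which starts the breakdown of phytanic acid, ran between 1878 and 2068 CPM across controls (median 2017) and between 1618 and 1980.5 CPM across knockouts (median 1687) and lay below the control median in 7 of 7 HGFAC-KO mice (-0.21 ± 0.05, unadjusted p = 0.00147). The peroxisomal thiolase *Acaa1a* was -0.26 ± 0.07. Of 15 omega oxidation genes, 13 were lower (median -0.11, 5 at an unadjusted p under 0.05). The hydroxylases *Cyp4a10* and *Cyp4a12a* were -0.31 ± 0.08 and -0.53 ± 0.14. *Aldh3a2*, a fatty aldehyde dehydrogenase, ran between 323 and 831 CPM across controls (median 594) and between 314 and 479.7 CPM across knockouts (median 397), was -0.61 ± 0.16, and passed without control replicate 7 (-0.72, adjusted p = 0.0442). Expressed as a score, the median over members of each mouse's log2 CPM minus the mean of all 14 mice, fatty acid oxidation ran between -0.10 and 0.20 across controls (median 0.03) and between -0.15 and 0.04 across knockouts (median -0.06). The peroxisomal score ran between 0.00 and 0.10 across controls (median 0.03) and between -0.11 and 0.04 across knockouts (median -0.06). HGFAC-KO replicate 2 was lowest of its group in both scores and replicate 5 was highest, so the groups overlapped.

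**Figure D3:**
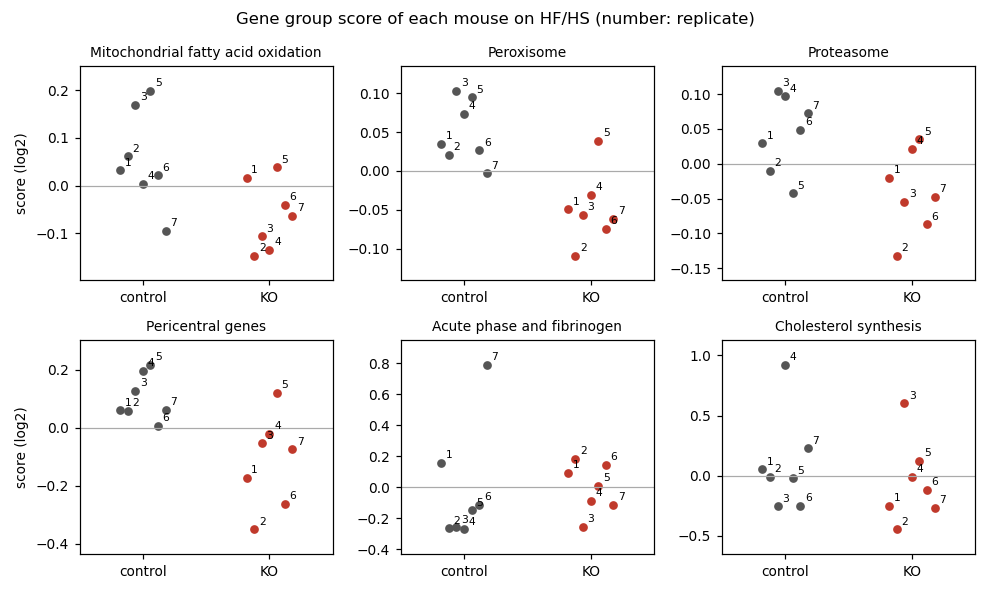
Scores of 6 gene groups (vertical axes, log2 units: median over members of log2 CPM minus the gene's mean over 14 mice) in controls (grey) and HGFAC-KO mice (red), with the replicate number beside each point. HGFAC-KO replicate 5 lies inside the control range in the first 4 panels, control replicate 7 stands at 0.79 for acute-phase genes and control replicate 4 at 0.92 for cholesterol synthesis.

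Branched-chain amino acid degradation, pyruvate use and the TCA cycle gave medians of the same sign, each smaller in size than that of fatty acid oxidation. For degradation of branched-chain amino acids, 21 of 24 genes were lower (median -0.11), with 1 higher and 8 lower at an unadjusted p under 0.05 (13 lower without HGFAC-KO replicate 5). *Hsd17b10*, which acts in isoleucine breakdown, ran between 136 and 197 CPM across controls (median 162) and between 96.2 and 185 CPM across knockouts (median 109), and replicate 5 alone of the HGFAC-KO mice was above the control median. It was -0.45 ± 0.13 with all mice and -0.58 without replicate 5, where it passed (adjusted p = 0.0169). *Abat* and *Pcca* were -0.23 ± 0.06 and -0.19 ± 0.06. Genes of gluconeogenesis and pyruvate use were lower in 25 of 36 cases (median -0.08, 1 higher and 7 lower at an unadjusted p under 0.05, and 11 lower without replicate 5). Next to *Pcx*, *Pdha1* of pyruvate dehydrogenase was -0.18 ± 0.05. *Slc25a13*, which carries aspartate out of mitochondria for the urea cycle, was counted with amino acid catabolism and not here, and was -0.15 ± 0.04. *Pck1* and *G6pc*, which carry the first committed and the last step of gluconeogenesis and were chosen after their values were seen, had larger differences and larger errors, -0.97 ± 0.38 and -0.75 ± 0.39. *Pck1* ran between 653 and 2830.3 CPM across controls (median 1482) and between 375 and 1788 CPM across knockouts (median 606), so HGFAC-KO mice reached well into the control range. TCA cycle genes were lower in 14 of 18 cases (median -0.05), led by *Sdha* (-0.12 ± 0.05), *Suclg2* (-0.19 ± 0.08) and *Mdh2* (-0.11 ± 0.05).

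Nuclear genes of oxidative phosphorylation showed the most uniform sign. Of 78, 75 were lower in HGFAC-KO mice, but by a median of only -0.07, and 4 were lower at an unadjusted p under 0.05, which is 5.13% of them against 4.7% of all genes. Without HGFAC-KO replicate 5, 21 were lower at that level. With single mice left out, the median ran from -0.10 without HGFAC-KO replicate 5 to -0.04 without control replicate 3. The complex I subunits *Ndufb3* and *Ndufs3* were -0.18 ± 0.07 and -0.13 ± 0.06. These genes vary together between mice, and the score ran between -0.10 and 0.21 across controls (median 0.04) and between -0.12 and 0.15 across knockouts (median -0.06). On chow the median of the same genes was 0.08. The 13 genes encoded in mitochondrial DNA had a median of 0.05, with 6 lower and none at an unadjusted p under 0.05, while without HGFAC-KO replicate 5 there were 3 higher at that level. The median was -0.0033 without HGFAC-KO replicate 6 and 0.11 without HGFAC-KO replicate 7. *mt-Nd1* had medians of 5469 CPM in controls and 5933 CPM in knockouts (0.13 ± 0.08), and *mt-Atp8* rested on HGFAC-KO replicate 3 with 119.9 CPM, while the medians were 24.4 CPM in controls and 23.9 CPM in knockouts.

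Proteasome subunits, which degrade ubiquitinated proteins, were lower in 38 of 48 cases with a median of -0.11. At an unadjusted p under 0.05, 20 were lower (41.7% against 4.7% of all genes), and 1 was higher. The proteasome score ran between -0.04 and 0.10 across controls (median 0.05). Across knockouts it ran between -0.13 and 0.035 (median -0.05), so the groups overlapped. *Psmc3*, an ATPase of the regulatory particle, ran between 133 and 153 CPM across controls (median 145) and between 124 and 135 CPM across knockouts (median 133), a log2 fold change of -0.13 ± 0.04 (unadjusted p = 0.00476), and *Psmd1* and *Psmd2* were -0.14 ± 0.04 and -0.15 ± 0.05. The exception was *Psmb10*, a catalytic subunit of the immunoproteasome that interferon induces (0.21 ± 0.08). Cytosolic ribosomal protein genes had a median of 0.02, with 54 of 82 higher, which without HGFAC-KO replicate 5 became -0.005 and 36. Mitochondrial ribosomal protein genes had a median of -0.03, with 53 of 80 lower. With single mice left out, that median ran from -0.04 without control replicate 5 to -0.0023 without control replicate 3. Without control replicate 7, 14 proteasome genes were lower at an unadjusted p under 0.05, and without HGFAC-KO replicate 5 there were 26.

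**Figure D4:**
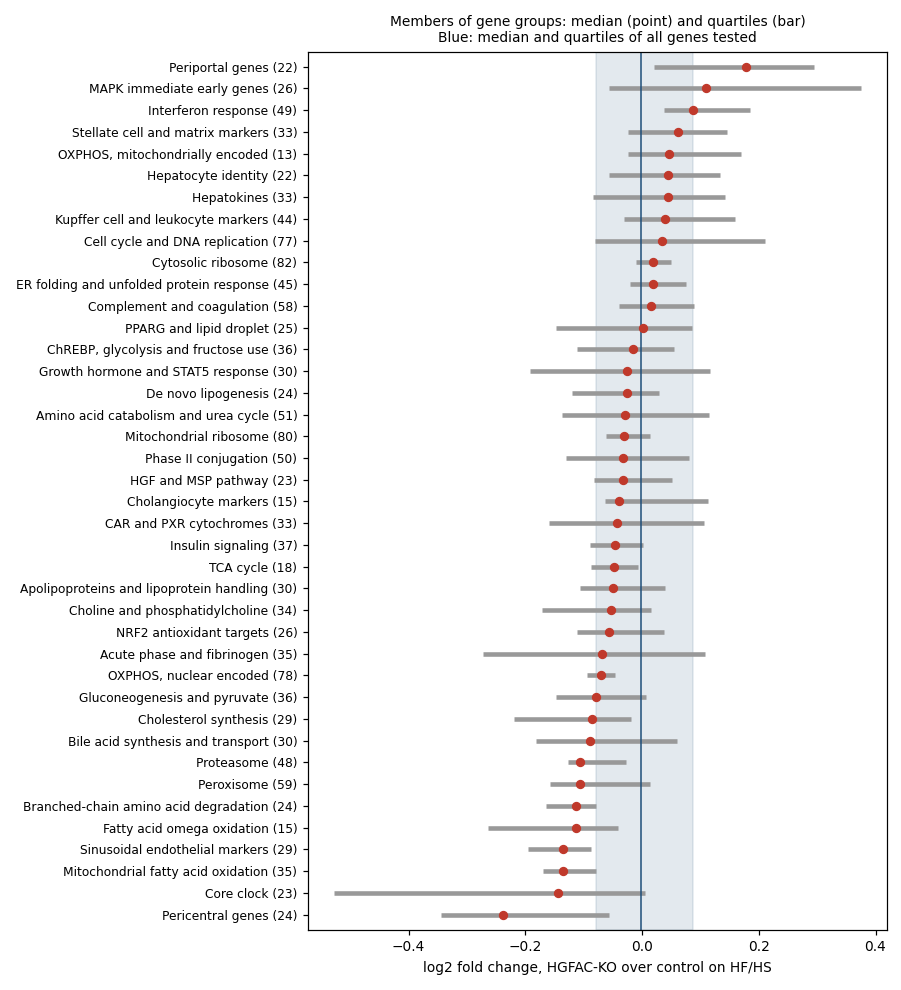
Median (red points) and quartiles (grey bars) of the log2 fold change of HGFAC-KO over control on HF/HS for the gene groups with 10 or more genes tested, whose number is in brackets. The blue line and band give the median and quartiles of all 13544 genes. Pericentral genes lie lowest at -0.24 and periportal genes highest at 0.18, a value that was 0.086 without HGFAC-KO replicate 2.

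Hepatocytes differ along the liver lobule: those near the central vein take up ammonia into glutamine and hold most drug-metabolizing enzymes under Wnt signaling, while periportal hepatocytes carry more of the urea cycle and gluconeogenesis. Genes typical of these zones differed in opposite directions. Of 24 pericentral genes, 21 were lower. The median of -0.24 was the lowest of the 42 groups, and 10 were lower at an unadjusted p under 0.05, against 4.7% of all genes. Next to *Oat*, the organic cation transporter *Slc22a3* ran between 5.58 and 9.36 CPM across controls (median 7.55) and between 3.66 and 6.43 CPM across knockouts (median 4.92), a log2 fold change of -0.54 ± 0.13 (unadjusted p = 9.10e-04). *Lect2*, a secreted protein under Wnt control, ran between 58.2 and 77.6 CPM across controls (median 68.8) and between 41.3 and 65.5 CPM across knockouts (median 46.6), a log2 fold change of -0.40 ± 0.10 (unadjusted p = 0.0014), and all 7 HGFAC-KO mice were below the control median for both. Glutamine synthetase (*Glul*), *Cyp2e1* and *Lgr5*, a receptor of R-spondins chosen after its values were seen, were -0.25 ± 0.07, -0.33 ± 0.12 and -0.39 ± 0.15. None of these passed the adjusted test by edgeR, while DESeq2 called *Oat* and *Slc22a3* (adjusted p = 0.00448 and 0.0342). The pericentral score ran between 0.01 and 0.22 across controls (median 0.06) and between -0.35 and 0.12 across knockouts (median -0.08), where of the HGFAC-KO mice replicate 5 alone lay in the control range. With each mouse left out, the median of the group stayed between -0.28 and -0.19. On chow it was -0.11 with 1 of 24 lower at an unadjusted p under 0.05, against 348 of 13422 genes.

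Periportal genes were higher in 17 of 22 cases, with a median of 0.18 and 5 higher and 1 lower at an unadjusted p under 0.05. With single mice left out, the median ran from 0.09 without HGFAC-KO replicate 2 to 0.20 without HGFAC-KO replicate 5. Next to *Alb*, E-cadherin (*Cdh1*) ran between 57.8 and 81.5 CPM across controls (median 71.0) and between 73.0 and 114 CPM across knockouts (median 86.7), a log2 fold change of 0.33 ± 0.10 (unadjusted p = 0.00495) and the lipid droplet protein *Hsd17b13* ran between 303 and 418 CPM across controls (median 363) and between 332 and 562 CPM across knockouts (median 423), a log2 fold change of 0.30 ± 0.10 (unadjusted p = 0.0109). Glutaminase (*Gls2*), chosen after its values were seen, was 0.19 ± 0.08. *Pck1* was the member that was lower at an unadjusted p under 0.05. The score overlapped more than that of the pericentral genes and ran between -0.13 and 0.09 across controls (median -0.02) and between -0.14 and 0.36 across knockouts (median 0.05), with HGFAC-KO replicate 1 lowest and replicate 2 highest of all mice.

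Markers of the sinusoidal endothelium were lower in 26 of 29 cases (median -0.14, 1 higher and 6 lower at an unadjusted p under 0.05). Wnt ligands and R-spondins that act on pericentral hepatocytes come from endothelial cells. A link between these markers and the pericentral values was not tested. The ligands *Wnt2* and *Wnt9b* are among the 29 and are not reported here. In whole liver, fewer cells of a type and less RNA per cell cannot be told apart. *Ehd3* ran between 48.0 and 79.6 CPM across controls (median 71.4) and between 42.1 and 68.3 CPM across knockouts (median 52.8), a log2 fold change of -0.32 ± 0.11 (unadjusted p = 0.0111). *Bmp2*, which endothelial cells secrete to raise hepcidin in hepatocytes, had medians of 12.5 CPM in controls and 9.15 CPM in knockouts (-0.39 ± 0.14), and *Dnase1l3* was -0.28 ± 0.11. *Rspo3* was -0.29 ± 0.12 and *Lyve1*, the member that was higher at an unadjusted p under 0.05, 0.35 ± 0.15, both chosen after their values were seen. The summed level of the 29 markers was 604 to 918 CPM in controls and 564 to 807 CPM in the knockouts, with none at 0. With single mice left out, the median ran from -0.19 without HGFAC-KO replicate 1 to -0.10 without control replicate 5, and on chow it was -0.20.

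**Figure D5:**
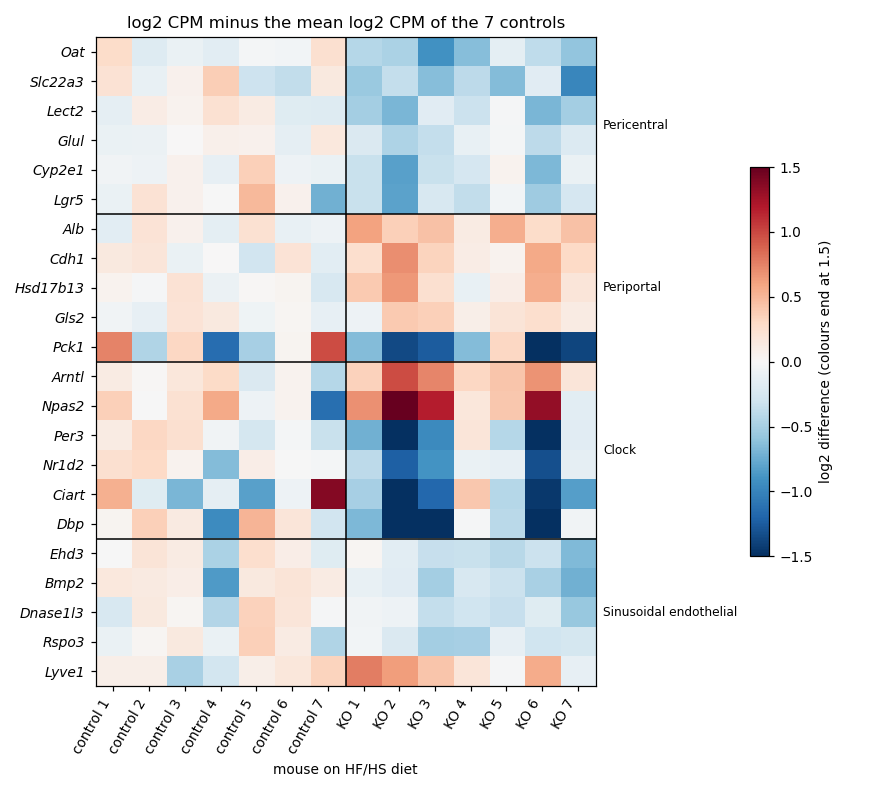
Log2 CPM of single genes (rows) in the 14 mice on HF/HS (columns) minus the mean log2 CPM of the 7 controls, from blue (lower) to red (higher), with colours ending at 1.5. Pericentral genes are mostly blue and periportal genes other than *Pck1* mostly red in HGFAC-KO mice, and HGFAC-KO replicates 2, 3 and 6 carry the strongest colours among clock genes.

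The circadian clock of liver is a loop in which ARNTL (BMAL1) with CLOCK or NPAS2 drives its own repressors, the PER, CRY and REV-ERB proteins, and the output factors DBP and TEF. Its genes differed in both directions. *Arntl* ran between 11.3 and 18.6 CPM across controls (median 15.8) and between 17.3 and 30.1 CPM across knockouts (median 20.4), above the control median in all 7 HGFAC-KO mice, with a log2 fold change of 0.53 ± 0.13 (unadjusted p = 7.88e-04, adjusted p = 0.331). *Npas2* was also higher (0.84 ± 0.30, unadjusted p = 0.0126). *Per3* ran between 13.9 and 21.8 CPM across controls (median 17.2) and between 5.81 and 19.9 CPM across knockouts (median 10.7), a log2 fold change of -0.63 ± 0.24, unadjusted p = 0.0201. Among genes chosen after their values were seen, *Nr1d2* (REV-ERB beta) was -0.54 ± 0.21, *Ciart*, a repressor of the loop, was -0.84 ± 0.38 and *Dbp* was -0.95 ± 0.48. *Cry1*, a repressor that was the other member higher at an unadjusted p under 0.05, was 0.33 ± 0.13, and *Clock*, *Per1*, *Per2*, *Cry2*, *Nr1d1* and *Tef* were 0.00 ± 0.10, -0.68 ± 0.48, -0.14 ± 0.12, -0.17 ± 0.11, -0.32 ± 0.29 and -0.51 ± 0.22, these 7 likewise named after their values were seen. None passed the adjusted test by edgeR, while DESeq2 called *Arntl* (adjusted p = 0.0342). Over all 23 clock genes, 17 were lower (median -0.14), and there were 3 higher and 5 lower at an unadjusted p under 0.05 (3 lower without control replicate 7). With single mice left out, the median ran from -0.22 without HGFAC-KO replicate 4 to -0.12 without HGFAC-KO replicate 6.

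For *Dbp*, *Npas2*, *Per3*, *Nr1d2* and *Ciart* the largest differences lay in 3 of the HGFAC-KO mice, while *Arntl* was higher than the control median in all 7. *Dbp* stood at 4.15, 9.70 and 5.44 CPM in HGFAC-KO replicates 2, 3 and 6, while the other 4 ran from 26.7 to 42.0 CPM and controls from 22.2 to 60.4 CPM. *Npas2* stood at 9.61, 6.18 and 6.76 CPM in the same 3 mice and from 2.44 to 4.37 CPM in the others, against 1.24 to 4.05 CPM in controls. The same 3 mice were the lowest HGFAC-KO mice for *Per3*, *Nr1d2* and *Ciart*. Replicate 2 also had the lowest score of all mice for fatty acid oxidation (-0.15), peroxisome (-0.11), proteasome (-0.13) and pericentral genes (-0.35). Replicate 6 was next lowest for peroxisome (-0.07), proteasome (-0.09) and pericentral genes (-0.26), but stood at -0.04 for fatty acid oxidation. Replicate 3 stood at -0.11, -0.06, -0.05 and -0.05 in the order above. Outside these mice, HGFAC-KO replicate 4 stood at -0.135 for fatty acid oxidation and replicate 1 at -0.17 for pericentral genes. *Chka* did not follow the pattern of these clock genes, since it stood at 75.1, 80.7 and 80.4 CPM in replicates 2, 3 and 6 and from 76.8 to 89.5 CPM in the others. The time of day at which single mice were sampled is not given in the labels, and its part in these values was not tested.

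Promoter sequences are shown for 2 clock genes that were lower, because they hold the letters through which the loop is known to act, and for *Chka* as the gene that changed. RefSeq promoters of GRCm38.p6, from 250 bases before to 50 after the start, were found for 18 of the 23 clock genes and searched on both strands for the E-box CACGTG, bound by ARNTL with its partners, the half-site AGGTCA, bound by REV-ERB, ROR and other nuclear receptors, and the D-box TTATGTAA, bound by DBP and TEF. Matches of different motifs did not overlap in the clock promoters. The motifs occurred in 7.15%, 16.3% and 0.938% of all 32851 promoters. Counted per gene, with a match in any of its promoters, they occurred in 5, 5 and 1 of the 18 clock genes. Some clock genes have several promoters, so these counts cannot be set against the shares. The 250 bases before the start are printed, with motif matches in capitals:
*Ciart*, chr3:95882229-95882478, minus strand: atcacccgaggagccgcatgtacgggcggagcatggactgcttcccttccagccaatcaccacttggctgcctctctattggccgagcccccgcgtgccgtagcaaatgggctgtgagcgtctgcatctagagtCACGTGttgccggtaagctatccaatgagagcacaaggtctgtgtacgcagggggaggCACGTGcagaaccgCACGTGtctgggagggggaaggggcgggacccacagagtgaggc
*Per3*, chr4:151044666-151044915, minus strand: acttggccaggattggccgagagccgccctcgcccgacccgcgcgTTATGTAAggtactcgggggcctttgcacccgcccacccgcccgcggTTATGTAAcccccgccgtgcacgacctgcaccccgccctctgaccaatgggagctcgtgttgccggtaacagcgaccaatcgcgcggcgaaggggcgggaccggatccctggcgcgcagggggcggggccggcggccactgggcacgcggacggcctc
*Chka*, chr19:3851523-3851772, plus strand: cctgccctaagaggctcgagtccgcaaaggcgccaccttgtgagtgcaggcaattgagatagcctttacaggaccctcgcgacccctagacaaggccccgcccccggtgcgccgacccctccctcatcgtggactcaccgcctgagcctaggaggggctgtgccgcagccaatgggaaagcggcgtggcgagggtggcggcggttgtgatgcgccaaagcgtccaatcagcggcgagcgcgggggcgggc
*Ciart* held 3 E-boxes and *Per3* 2 D-boxes. *Nr1d2* had 1 half-site, *Arntl* had 1 that lies after the start of its more downstream promoter and is not printed, and *Chka* had none of the 3 motifs in its window. The motifs did not follow direction, since *Cry1*, which was higher, held 1 E-box and *Dbp*, which was lower, held none of the 3 motifs. A match is a description of the letters and not of binding in these livers.

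Lipid storage genes differed in both directions. Of 25 genes of PPARG and the lipid droplet, 13 were higher and 12 lower, with 3 higher and 6 lower at an unadjusted p under 0.05. *Pparg* itself, the nuclear receptor that drives fat storage, ran between 3.22 and 7.52 CPM across controls (median 5.20) and between 2.71 and 5.07 CPM across knockouts (median 4.02) and was below the control median in all 7 HGFAC-KO mice (-0.44 ± 0.20, unadjusted p = 0.0444). *Fitm1*, which aids droplet formation, ran between 9.35 and 21.4 CPM across controls (median 18.2) and between 7.16 and 16.6 CPM across knockouts (median 9.999), a log2 fold change of -0.69 ± 0.19 (unadjusted p = 0.00283), and *Mogat1* and *Mgll*, which make diacylglycerol and break down monoacylglycerol, were -0.58 ± 0.19 and -0.23 ± 0.09. In the other direction, *G0s2*, an inhibitor of triglyceride lipase, ran between 58.8 and 173 CPM across controls (median 98.1) and between 121 and 175 CPM across knockouts (median 148), a log2 fold change of 0.52 ± 0.18 (unadjusted p = 0.0134). For de novo lipogenesis the median was -0.03 over 24 genes, and for glycolysis and fructose use -0.02 over 36. *Gpd1*, which makes glycerol 3-phosphate, was -0.29 ± 0.09. *Tm6sf2* and *Apom*, both of lipoprotein handling, were 0.49 ± 0.14 and 0.17 ± 0.05.

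Cholesterol synthesis genes were lower in 25 of 29 cases with a median of -0.09, but none had an unadjusted p under 0.05. The sterol-regulated genes vary together between mice: the score ran between -0.26 and 0.92 across controls (median -0.01) and between -0.45 and 0.60 across knockouts (median -0.12). The highest score was that of control replicate 4. Leaving out single mice moved the median of the group between -0.20 and 0.07, the highest value without control replicate 4. *Slco1b2*, a hepatocyte transporter of bile acids and drugs, ran between 979.8 and 1354 CPM across controls (median 1149) and between 697 and 1032 CPM across knockouts (median 863), a log2 fold change of -0.38 ± 0.09 (unadjusted p = 5.52e-04). The median over 30 bile acid genes was -0.09, from -0.11 without HGFAC-KO replicate 5 to -0.05 without control replicate 5. At an unadjusted p under 0.05, 1 was higher and 4 were lower (13.3% against 4.7% of all genes). There were 8 lower without control replicate 7 and 9 without HGFAC-KO replicate 5.

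Secreted liver proteins were mixed. Of 33 hepatokines, 22 were higher (median 0.04), with 5 higher and 2 lower at an unadjusted p under 0.05 (8 higher without control replicate 7, 4 lower without HGFAC-KO replicate 5). Besides *Angptl8*, adropin (*Enho*) ran between 16.6 and 35.9 CPM across controls (median 28.5) and between 28.2 and 50.3 CPM across knockouts (median 40.7), a log2 fold change of 0.61 ± 0.17 (unadjusted p = 0.003). *Gpnmb* was low in all mice, with medians of 0.206 CPM in controls and 0.490 CPM in knockouts (0.95 ± 0.31), and *Gdf15*, chosen after its values were seen, was 0.62 ± 0.22. *Lect2* was the hepatokine with the smallest p among those that were lower.

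Acute-phase genes depended on control replicate 7. *Saa2*, serum amyloid A, stood at 657 CPM in that mouse and between 4.71 and 29.0 CPM in the other controls, while HGFAC-KO mice ran from 6.94 to 49.8 CPM. Its log2 fold change of -2.73 ± 1.20 became 0.26 without this control. *Saa1* went from -2.02 ± 1.05 to 0.20. Over 35 acute-phase genes the median was -0.07 with all mice and 0.18 without control replicate 7, where 8 were higher at an unadjusted p under 0.05, and *Pzp* was 0.21 ± 0.08 and 0.25. Interferon-response genes also depended on this mouse: 45 of 49 were higher in the knockouts (median 0.09), a median that was 0.20 without it and 0.05 without control replicate 2. *Stat2* and *Tap1* were 0.22 ± 0.09 and 0.18 ± 0.08, and there were 3 higher and 0 lower at an unadjusted p under 0.05, or 13 higher without control replicate 7.

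Growth hormone targets were split in sign, 16 of 30 lower (median -0.03). *Cish*, a STAT5 target chosen after its values were seen, stood at 43.9 and 56.8 CPM in control replicates 2 and 3 and between 1.33 and 8.88 CPM in the other 5, and HGFAC-KO mice ran from 1.40 to 5.20 CPM. Its log2 fold change was -2.72 ± 0.91 (unadjusted p = 0.0102, adjusted p = 0.442). *Mup20*, a male urinary protein, and the prolactin receptor *Prlr* were 0.29 ± 0.10 and 0.31 ± 0.10.

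Cell cycle genes were higher in 42 of 77 cases (median 0.03), with 4 higher and 4 lower at an unadjusted p under 0.05. With single mice left out the median ran from 0.0052 without HGFAC-KO replicate 2 to 0.06 without HGFAC-KO replicate 6, and it was -0.0153 over the genes with at least 10 counts in every library. The inhibitor *Cdkn1a* (p21) ran between 4.41 and 24.1 CPM across controls (median 6.38) and between 11.8 and 28.6 CPM across knockouts (median 20.4), a log2 fold change of 0.99 ± 0.36 (unadjusted p = 0.0149), and *Racgap1*, of cytokinesis, was 0.60 ± 0.22 at medians of 0.406 CPM in controls and 0.521 CPM in knockouts. Kupffer cell and leukocyte markers had a median of 0.04 over 44 genes, 0.15 without control replicate 7 and -0.0093 without control replicate 2. With all mice 2 were higher at an unadjusted p under 0.05, and without control replicate 7 there were 7. Stellate cell and matrix genes had a median of 0.06 over 33 genes, led by the collagen *Col1a1* (0.55 ± 0.26), and with single mice left out the median ran from 0.01 without HGFAC-KO replicate 3 to 0.11 without control replicate 1. Cholangiocyte markers had a median of -0.04 over 15 genes, of which *Sox9*, also found in some periportal hepatocytes, was the one with an unadjusted p under 0.05, and ran between 8.63 and 22.2 CPM across controls (median 15.9) and between 17.8 and 37.9 CPM across knockouts (median 24.1), a log2 fold change of 0.78 ± 0.21 (unadjusted p = 0.00205). Of 22 markers of adipocytes, muscle and pancreas, 4 passed the low-count filter, and 7 were at 0 in all 14 libraries. Their summed level was 438 to 2117 CPM in controls and 512 to 1594 CPM in the knockouts, nearly all of it *Car3*, which liver also expresses and which was looked at after its values were seen. Erythroid markers rested on HGFAC-KO replicate 1, where *Hbb-bs* (beta globin) stood at 243 CPM against 32.2 to 94.1 CPM in controls.

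Of the remaining groups, 29 of 51 genes of amino acid catabolism and the urea cycle were lower (median -0.03), as were 25 of 37 of insulin signaling (-0.05), 18 of 30 of lipoprotein handling (-0.05), 17 of 26 NRF2 targets (-0.06), 28 of 50 of phase II conjugation (-0.03) and 19 of 33 cytochromes under CAR and PXR (-0.04). With single mice left out, these medians ran from -0.04 to -0.0032 (amino acid catabolism), -0.06 to -0.01 (insulin signaling) and -0.08 to -0.0067 (lipoprotein handling). They ran from -0.07 to -0.04 (NRF2), -0.05 to -0.0082 (phase II) and -0.09 to -0.0027 (CAR and PXR). The ends nearest 0 came without control replicate 3, except for amino acid catabolism (HGFAC-KO replicate 1) and insulin signaling (HGFAC-KO replicate 2). ER folding genes (0.02), complement and coagulation genes (0.02) and hepatocyte identity genes (0.05) had medians slightly above 0. Without control replicate 7, those of ER folding and of complement and coagulation were 0.0766 and 0.0844, with 2 complement and coagulation genes higher at an unadjusted p under 0.05 with all mice and 7 without it. Without control replicate 5 the ER folding median was -0.0275, and without control replicate 3 that of complement and coagulation was -0.0011. Single mice also turned the sign of the medians of the HGF and MSP pathway (-0.06 without control replicate 3 to 0.01 without control replicate 1), the lipid droplet group (-0.04 without HGFAC-KO replicate 6 to 0.02 without HGFAC-KO replicate 4), de novo lipogenesis (-0.07 without HGFAC-KO replicate 3 to 0.02 without control replicate 2), glycolysis and fructose use (-0.06 and 0.01, without HGFAC-KO replicates 2 and 4), growth hormone targets (-0.07 without control replicate 7 to 0.02 without HGFAC-KO replicate 2) and cholangiocyte markers (-0.08 and 0.0019, without control replicate 6 and HGFAC-KO replicate 5). Of the medians above, other settings turned those of acute-phase genes (0.02 with the replicate block), genes in mitochondrial DNA (-0.0089 by voom), the lipid droplet group (-0.04 with 1 surrogate variable) and growth hormone targets (0.0034 with no filter on low counts).

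Whether the genotype effect differed between HF/HS and chow was fitted as an interaction term with all 27 mice. None of 13932 genes passed an adjusted p of 0.05 (0.0%) by edgeR, and none passed by DESeq2. Of the 13932 genes, 506 by edgeR and 543 by DESeq2 had an unadjusted p under 0.05, both a share below 0.05. For *Chka* the difference between the 2 effects was 0.36 on the log2 scale (unadjusted p = 0.0289, adjusted p = 0.984), and for *Pcx*, whose log2 fold change on chow was -0.03, it was -0.33 (unadjusted p = 0.00734, adjusted p = 0.984). *Chka* and *Pcx* were named for their HF/HS values, which also enter the interaction, so their unadjusted p-values there are biased toward small values. *Hes1* was 0.44 and *Oat* -0.34 on chow. The medians on chow were -0.07 for fatty acid oxidation, -0.04 for the peroxisome, -0.03 for the proteasome, -0.01 for branched-chain amino acid degradation and 0.05 for periportal genes, and 0.15 for cytosolic ribosomal proteins, of which all 82 were higher in HGFAC-KO mice there. They were -0.17 for cell cycle genes, with 62 of 78 lower and 17 of these at an unadjusted p under 0.05, -0.19 for Kupffer cell and leukocyte markers, 0.08 for cholesterol synthesis, 0.09 for acute-phase genes, -0.07 for stellate cell and matrix genes and -0.01 for clock genes. Of the 13422 genes tested on both diets, 456 were higher and 348 lower on chow at an unadjusted p under 0.05. No test of the differences between medians was made.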

How the data were processed

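Total liver mRNA of 27 mice was measured by RNA-Seq, and the 14 mice on HF/HS are reported here. The authors aligned stranded paired-end reads to GRCm38 (mm10) with HISAT2, counted them per gene with featureCounts 1.6.3 and deposited raw counts. The counting options, the strand setting and the annotation release are not given in the sources used here, so reads of near-identical or overlapping genes may be split between them. Rows without a gene name were left out and rows sharing a symbol were summed. Counts were normalized by TMM, filtered with filterByExpr (minimum count 10, minimum total 15) and tested with edgeR 4.0.16 in R 4.3.3 (quasi-likelihood, robust, Benjamini-Hochberg, threshold 0.05), each diet on its own and the interaction over all mice. CPM are TMM normalized. For single genes the exact permutation test over 3432 splits of the mice, two-sided on log2 CPM with a prior count of 2, gives its smallest possible value, p = 0.000583, for each of the 11 genes whose groups did not overlap and adds nothing to that count. Alternatives were DESeq2 1.42.0, limma 3.58.1 voom, 1 surrogate variable from sva 3.50.0, other filters and scalings, all 27 mice, a replicate block, and leaving out each mouse. The fits were also run on simulated counts, with a result that is not reported here. The 42 gene groups, written by hand, and the rule for named genes were chosen with earlier results of these data known, and groups were described without a test. Named were *Hgfac*, genes past the threshold, the 10 higher and 10 lower genes with the smallest p, the 3 members of each group with the smallest p, and members of 4 groups (HGF pathway, choline, PPARG, mitochondrial DNA). Others are marked where named, and some genes under this rule are not reported here. Sequences come from RefSeq (promoters), GENCODE (transcript) and the study's primer list. At these depths counting error is small for most genes, and genes near 1 CPM are less precise.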

Additional observations from a re-analysis of the deposited data

Results flagged for a closer look

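A mouse far from the others of its group was looked for in 318 groups of 7 values, of named genes, group scores and library measures, with Dixon's criterion. It marked 29 values, where chance marks about 1 group in 20. Control replicate 7 held *Poc1b* at 6.54, *Saa1* at 1235, *Saa2* at 657 and *Cdkn1a* at 24.1 CPM, with scores of 0.79 for acute-phase and 0.20 for complement and coagulation genes. Control replicate 4 held *Itih5* at 26.8, *Bmp2* at 6.34 and *Nr1d2* at 32.9 CPM, with a cholesterol synthesis score of 0.92. Other controls were apart for *Tafa5* (replicate 2, 1.42 CPM), *Mst1r* (replicate 6, 0.519 CPM), *Egr1* (replicate 1, 21.35 CPM), *Cyp2e1* (replicate 5, 8726 CPM) and the gluconeogenesis and pyruvate score (replicate 3, 0.09).

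HGFAC-KO replicate 5 held *Met* at 101.2, *Lpin2* at 112, *Eci1* at 185, *Hsd17b10* at 185 and *Pck1* at 1788 CPM, and had a choline and phosphatidylcholine score of 0.08. HGFAC-KO replicate 2 held *Saa1* at 181, *Saa2* at 49.8 and *Racgap1* at 1.04 CPM. The remaining values were *Phyh* at 1981 CPM in replicate 4, *Psmd2* at 204 CPM in replicate 6, *mt-Atp8* at 119.9 CPM in replicate 3, and *Hbb-bs* at 243 CPM with an erythroid score of 1.74 in replicate 1 of the HGFAC-KO mice. No named gene passed the interaction between genotype and diet.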

How the results depend on the processing

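The count of 2 genes was 55 by DESeq2 and 1 with all 27 mice, where *Chka* kept its log2 fold change of 0.52 but had an adjusted p of 0.126. It was 2 with voom, the other filters and scalings and 1 surrogate variable. With single mice left out it ran from 2 to 11, with 11 without HGFAC-KO replicate 5 and 5 without control replicate 7. *Hgfac* (-1.59 to -1.54) and *Chka* (0.49 to 0.54) passed each time. The interaction count was 0 in every setting run. With the replicate block the count was 2, and the numbers did not pair the mice: correlations of same-numbered deviations ran from -0.275 to 0.302, and 2 of 7 HGFAC-KO mice correlated best with the control of their own number. Of 113 other named genes, 37 passed in at least 1 setting, 35 of them by DESeq2. Directions turned for *Hgf* (-0.21 to 0.00946 with single mice left out, the latter without control replicate 2), *Saa1* (0.21 by DESeq2, -2.76 to 0.20 with single mice left out) and *Saa2* (-3.37 to 0.26), both of these without control replicate 7. The cause of these differences was not tested. Upper-quartile scaling moved the median of all genes to 0.0123. A p that misses the threshold does not show that levels were equal.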
